A study of Mus musculus with 12 samples.

Results

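Ribosome biogenesis factors are the proteins that make, cut, modify and assemble ribosomal RNA in the nucleolus without being part of the finished ribosome. The 56 genes described here were taken by name, among 23123 distinct symbols in 26271 loci of the deposited table. The names were those of the Utp, Nop, Nol, Rrp, RNA polymerase I (Polr1) and Imp families, plus 16 single genes such as Fbl, Dkc1, Ncl and Npm1. Of these, 4 symbols stood in more than 1 row, and the row with the highest summed expression was read. The rows of these 4 were thus selected on measured expression, summed over the 3 media. The set itself was drawn up with results of these data known, so the counts below are a description. The cells were C2C12, an established mouse myoblast line, grown for 24 h in medium with 1 mM pyruvate, 10% fetal bovine serum and 1% penicillin/streptomycin. The groups differed in sugar: the high glucose medium held 25 mM, the low glucose medium 5 mM, and the galactose medium 10 mM galactose in place of glucose. Each group had 4 polyA RNA libraries, 12 in all. One line of cells in culture is a limited model of muscle stem cells, and nothing in the labels tells if the 4 libraries of a group are separate cultures.

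Each medium has a single pooled FPKM value per locus (fragments scaled to transcript length and library size) in the authors' deposited table. No value per library, SD or n can therefore be shown, and the depth is unknown. Calls are those of the authors' own test at q below 0.05; with unknown replication they measure only the spread between these libraries, which may be technical. All 6 myoblast markers checked were expressed, from 11.5 FPKM for Pax7 to 456 FPKM for Des in high glucose in the authors' deposited table, and their sum fell from 900 to 599 and 494 FPKM in low glucose and galactose. The 3 endothelial markers (Pecam1, Cdh5, Kdr) were at 0.157 FPKM or less and the 3 epithelial ones (Epcam, Krt8, Cdh1) at 0.21 FPKM or less in every medium. Of 3 leukocyte markers, Ptprc and Cd3e were at 0.0082 FPKM or less, and Cd68 was at 72.7, 96.0 and 98.6 FPKM per the authors' deposited table. Whether the fall of the myoblast markers bears on the results below was not tested. In bulk RNA, fewer cells of a type and less RNA per cell cannot be told apart.

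In the nucleolus, RNA polymerase I copies the ribosomal RNA genes into a long precursor. Small nucleolar RNA particles of the box C/D and box H/ACA kinds methylate it and convert uridines to pseudouridine. A large assembly called the small subunit processome folds and cuts its first part, and other factors assemble the large subunit. Proliferating myoblasts need this pathway to double their ribosomes before each division, and Myc is a well known activator of it.

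Ribosome biogenesis genes were higher in both low glucose and galactose than in high glucose. From high to low glucose, 46 of the 56 members passed as higher and 3 as lower, while 18.3% of all tested loci were called higher and 18.2% lower in the authors' deposited table. Among tested loci with at least 5 FPKM in either medium, a level nearer to that of the members, 22.9% were called higher. From high glucose to galactose, 47 were called higher and 3 lower, beside 26.5% higher and 24.8% lower among all tested loci in the authors' deposited table, and 32.2% higher among loci of at least 5 FPKM. The members' median log2 fold change was 0.44 in low glucose and 0.55 in galactose, beside 0.0071 and 0.0058 over all tested loci in the authors' deposited table. These are changes of 1.35-fold and 1.46-fold at the median, so the shift was wide but moderate in size. Only 3 members, Ncl, Tcof1 and Nop14, passed a 2-fold rise in galactose, and none did in low glucose.

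From low glucose to galactose the members moved little. There 12 were called higher and 2 lower, beside 17.4% higher and 16.0% lower among all tested loci in the authors' deposited table, and 18.9% higher among loci of at least 5 FPKM. The median was 0.10 on the log2 scale. The members' share called higher, 21.4%, lay near the background in this comparison. The 2 of 56 called lower lay below the 16.0% of all tested loci. The 3 comparisons share their media in pairs, so they are not independent of each other.

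**Figure D1:**
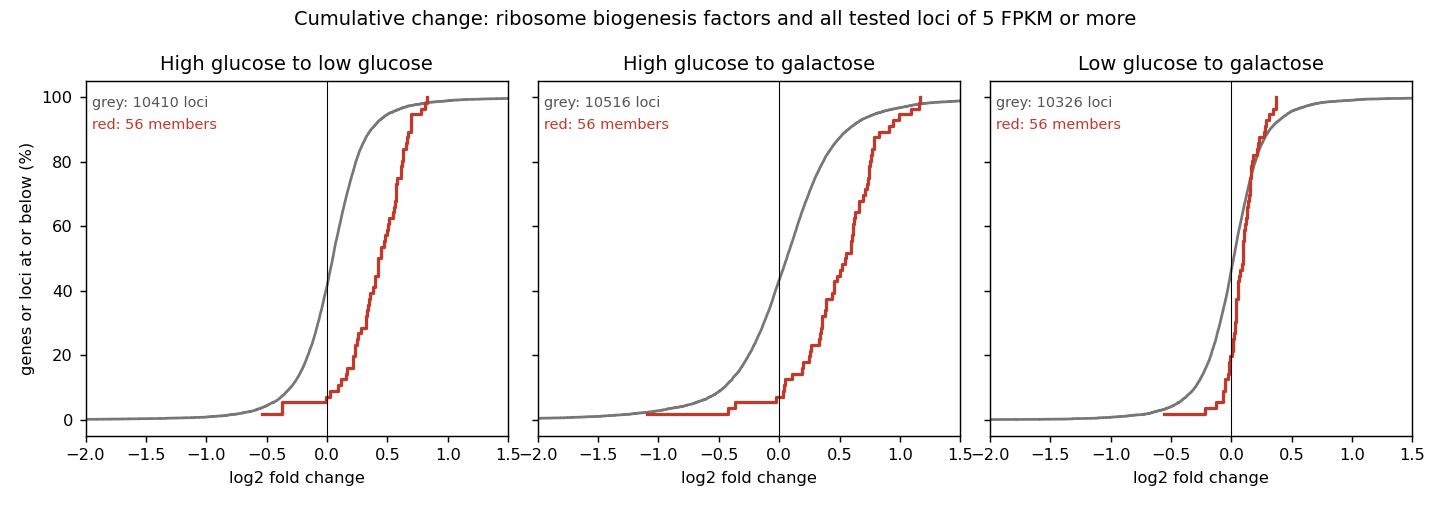
Cumulative share (y axis, %) of ribosome biogenesis factors (red, 56 members) and of all tested loci with at least 5 FPKM in either medium (grey) at or below each log2 fold change (x axis) in the authors' deposited table. The red curve lies to the right of the grey one in both comparisons with high glucose, with medians of 0.44 and 0.55, and close to it from low glucose to galactose, with a median of 0.10.

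The sum of FPKM over all loci differed between the media, which bears on the size of these shifts. FPKM is already scaled to library size, so this sum is not a measure of total RNA in the cells. The values of all loci sum to 548145, 582498 and 617537 FPKM in high glucose, low glucose and galactose. Set to equal totals, an alternative chosen after seeing the data, the median of all tested loci moved to -0.08 in low glucose and -0.17 in galactose against high glucose. The members' medians were then 0.35 and 0.38. All 46 and 47 members called higher kept a positive sign, while the median from low glucose to galactose came to 0.011.

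Since the members moved together, their promoters were searched for shared letters. RefSeq (GRCm38.p6, the same build as mm10) holds windows of 300 bases around the start for 44 of the 56. The E-box CACGTG, which reads the same on both strands and is the sequence that Myc with its partner Max binds, was in the windows of 9 of these 44 genes (20.5%). It was in 8.09% of all 27025 genes with a window and in 11.9% of 8309 genes that are single-symbol tested loci. The core CCGGAAG of ETS family sites, searched on both strands, was in 14 of the 44 (31.8%), beside 9.93% of all genes and 20.5% of the tested ones. The ATF4 and C/EBP composite core TGATGNAA was in 2 of 44 (4.55%), beside 4.51% and 2.78%, and TATAAA in 5 of 44 (11.4%), beside 15.7% and 8.35%. Matches of different motifs were counted separately whether or not they overlap, and a match is a description, not a bound site.

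The stretches from 150 bases before to 30 bases after the start are shown for the 4 members of largest rise in galactose with an E-box there, combined rows aside. Beside them stand the 3 of largest rise without one, among genes with a single window (Wdr12 has 3 windows, and Tcof1 and Npm1 none). Capitals mark CACGTG and CCGGAAG or its reverse complement CTTCCGG, and all other bases are in small letters. The ATF4 and C/EBP core and TATAAA are not marked.
Wdr43 (chr17:71616065-71616244, plus strand): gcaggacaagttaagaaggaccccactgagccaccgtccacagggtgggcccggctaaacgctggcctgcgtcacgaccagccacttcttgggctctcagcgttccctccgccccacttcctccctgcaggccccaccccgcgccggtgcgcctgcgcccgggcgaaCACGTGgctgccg
Utp18 (chr11:93885737-93885916, minus strand): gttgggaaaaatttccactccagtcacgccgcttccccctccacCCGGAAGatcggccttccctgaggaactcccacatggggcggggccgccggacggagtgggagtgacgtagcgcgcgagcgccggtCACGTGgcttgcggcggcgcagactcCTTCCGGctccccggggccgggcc
Imp4 (chr1:34439679-34439858, plus strand): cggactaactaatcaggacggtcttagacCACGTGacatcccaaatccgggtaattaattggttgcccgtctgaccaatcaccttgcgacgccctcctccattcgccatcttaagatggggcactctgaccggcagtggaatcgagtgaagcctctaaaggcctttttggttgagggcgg
Nop2 (chr6:125131733-125131912, plus strand): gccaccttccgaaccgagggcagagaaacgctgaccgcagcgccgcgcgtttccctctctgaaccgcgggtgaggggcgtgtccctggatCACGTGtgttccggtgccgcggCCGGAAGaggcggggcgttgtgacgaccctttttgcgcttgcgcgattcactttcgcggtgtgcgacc
Ncl (chr1:86359426-86359605, minus strand): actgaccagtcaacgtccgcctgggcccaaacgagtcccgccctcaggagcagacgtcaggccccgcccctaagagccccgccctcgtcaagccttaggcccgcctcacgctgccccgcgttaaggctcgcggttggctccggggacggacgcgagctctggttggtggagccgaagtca
Nop14 (chr5:34660119-34660298, minus strand): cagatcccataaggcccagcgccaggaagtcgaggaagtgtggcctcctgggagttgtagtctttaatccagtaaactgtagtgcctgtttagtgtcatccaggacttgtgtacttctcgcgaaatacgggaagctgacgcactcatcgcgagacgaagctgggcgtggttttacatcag
Nop58 (chr1:59684856-59685035, plus strand): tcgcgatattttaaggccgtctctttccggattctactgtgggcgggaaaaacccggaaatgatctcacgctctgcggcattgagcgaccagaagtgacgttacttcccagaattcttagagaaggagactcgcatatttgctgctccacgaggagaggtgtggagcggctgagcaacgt

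The E-box begins 18 bases into the transcript of Wdr43, and at positions -20, -121 and -60 from the start in Utp18, Imp4 and Nop2. These positions count from the RefSeq start. For 3 of the 7 printed windows, those of Imp4, Nop2 and Ncl, the bases after that start were not found in a GENCODE M21 transcript of the gene, so their positions have no second source here. The start equals the outer end of the deposited locus in Wdr43 and Nop2 and lies inside the locus in the other 5. It lies inside by 95155 bases in Nop14, 61218 in Utp18, 8509 in Ncl, 3166 in Imp4 and 115 in Nop58. The deposited loci of Nop14 and Utp18 thus reach far beyond these starts. Utp18 carries 2 copies of the ETS core in the printed stretch and Nop2 has 1. Ncl, Nop14 and Nop58 carry neither the E-box nor the ETS core in it. Nop14 has an unmarked match of the ATF4 and C/EBP core there, which begins 22 bases into its transcript. The other members with an E-box in the window were Nol11, Pes1, Rrp7a, Utp14b and Utp20. Of the 9, 8 were called higher in galactose, near the 83.9% of all members, and nothing about the E-box is read from that count.

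RNA polymerase I subunits rose modestly. Polr1a and Polr1b encode the large subunits that form the enzyme's active centre. Polr1a was at 20.0, 24.9 and 25.5 FPKM in high glucose, low glucose and galactose in the authors' deposited table. Polr1b was at 11.4, 18.1 and 17.7 FPKM, the largest change of the 5 subunits, with log2 changes of 0.66 and 0.63 against high glucose in the authors' deposited table. Polr1b thus had its higher level in both other media, which did not differ by the authors' test (q = 0.825).

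Polr1c and Polr1d encode subunits that RNA polymerase I shares with RNA polymerase III. Polr1c went from 50.8 to 60.6 and 64.7 FPKM and Polr1d from 40.6 to 50.7 and 53.1 FPKM per the authors' deposited table. Polr1e, which encodes a subunit that helps the enzyme start transcription, was the exception. It was at 7.05, 8.38 and 7.21 FPKM per the authors' deposited table, called higher in low glucose (q = 0.00463), not called in galactose against high glucose (q = 0.783), and lower in galactose than in low glucose (q = 0.0141). Over the 5 subunits, all 5 rose in low glucose and 4 in galactose, with median log2 changes of 0.32 and 0.36.

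Genes for nucleolar scaffold proteins rose most. Ncl encodes nucleolin, an abundant RNA-binding protein of the nucleolus, and was at 122, 216 and 274 FPKM in high glucose, low glucose and galactose in the authors' deposited table. Its level was 1.78-fold higher in low glucose and 2.25-fold higher in galactose than in high glucose (q = 0.000239 for both). That q is the lowest the deposited table holds, shared by 9204 of its 44006 tests. The locus of Ncl lies on chromosome 1 from 86342058 to 86367964 (mm10).

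Tcof1 encodes treacle, which brings RNA polymerase I and its cofactors to the ribosomal RNA genes. It was at 45.2, 77.7 and 101 FPKM per the authors' deposited table, with log2 changes of 0.78 in low glucose and 1.15 in galactose against high glucose. Npm1 encodes nucleophosmin, a histone chaperone of the granular outer part of the nucleolus, and had the highest level of all members in each medium, at 149, 235 and 287 FPKM per the authors' deposited table. Another row at the same coordinates as Npm1 held 0.229, 0.743 and 0.937 FPKM per the authors' deposited table and was not read. Nolc1, whose product binds treacle and small nucleolar particles, was at 49.8, 74.1 and 75.2 FPKM per the authors' deposited table. The 4 scaffold genes therefore all rose, and Ncl, Tcof1 and Npm1 rose again from low glucose to galactose, by 0.34, 0.37 and 0.29 on the log2 scale, while Nolc1 did not pass that test (q = 0.85).

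Box C/D particles carry the methyltransferase fibrillarin, encoded by Fbl, and the core proteins encoded by Nop56 and Nop58. Nop56 went from 80.8 to 131 and 144 FPKM, and Nop58 from 84.5 to 137 and 158 FPKM per the authors' deposited table. Both were 1.62-fold higher in low glucose, and 1.78-fold and 1.87-fold higher in galactose than in high glucose. Fbl was listed far below its partners, at 10.7, 14.4 and 15.0 FPKM per the authors' deposited table, and rose by log2 changes of 0.43 and 0.48. A row at the same coordinates, at 0.506, 0.569 and 0.61 FPKM per the authors' deposited table, was not read for Fbl. Nop58 stood 7.88-fold above Fbl in high glucose and 10.6-fold in galactose, per length.

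Box H/ACA particles convert uridine to pseudouridine, and the same proteins are part of telomerase. Dkc1 encodes dyskerin, the pseudouridine synthase, and was at 32.9, 52.2 and 56.0 FPKM per the authors' deposited table. Gar1, Nhp2 and Nop10 encode its partners. Gar1 went from 57.0 to 84.8 and 90.1 FPKM, Nhp2 from 136 to 182 and 204 FPKM, and Nop10 from 55.4 to 71.0 and 76.0 FPKM per the authors' deposited table. All 4 rose in both media against high glucose, with Dkc1 changing most (0.67 and 0.77 on the log2 scale) and Nop10 least (0.36 and 0.46). Their order by level, Nhp2 above Gar1, Nop10 and Dkc1, was the same in all 3 media. None of the 4 passed the authors' test from low glucose to galactose, where Nhp2 came nearest (q = 0.0525).

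**Figure D2:**
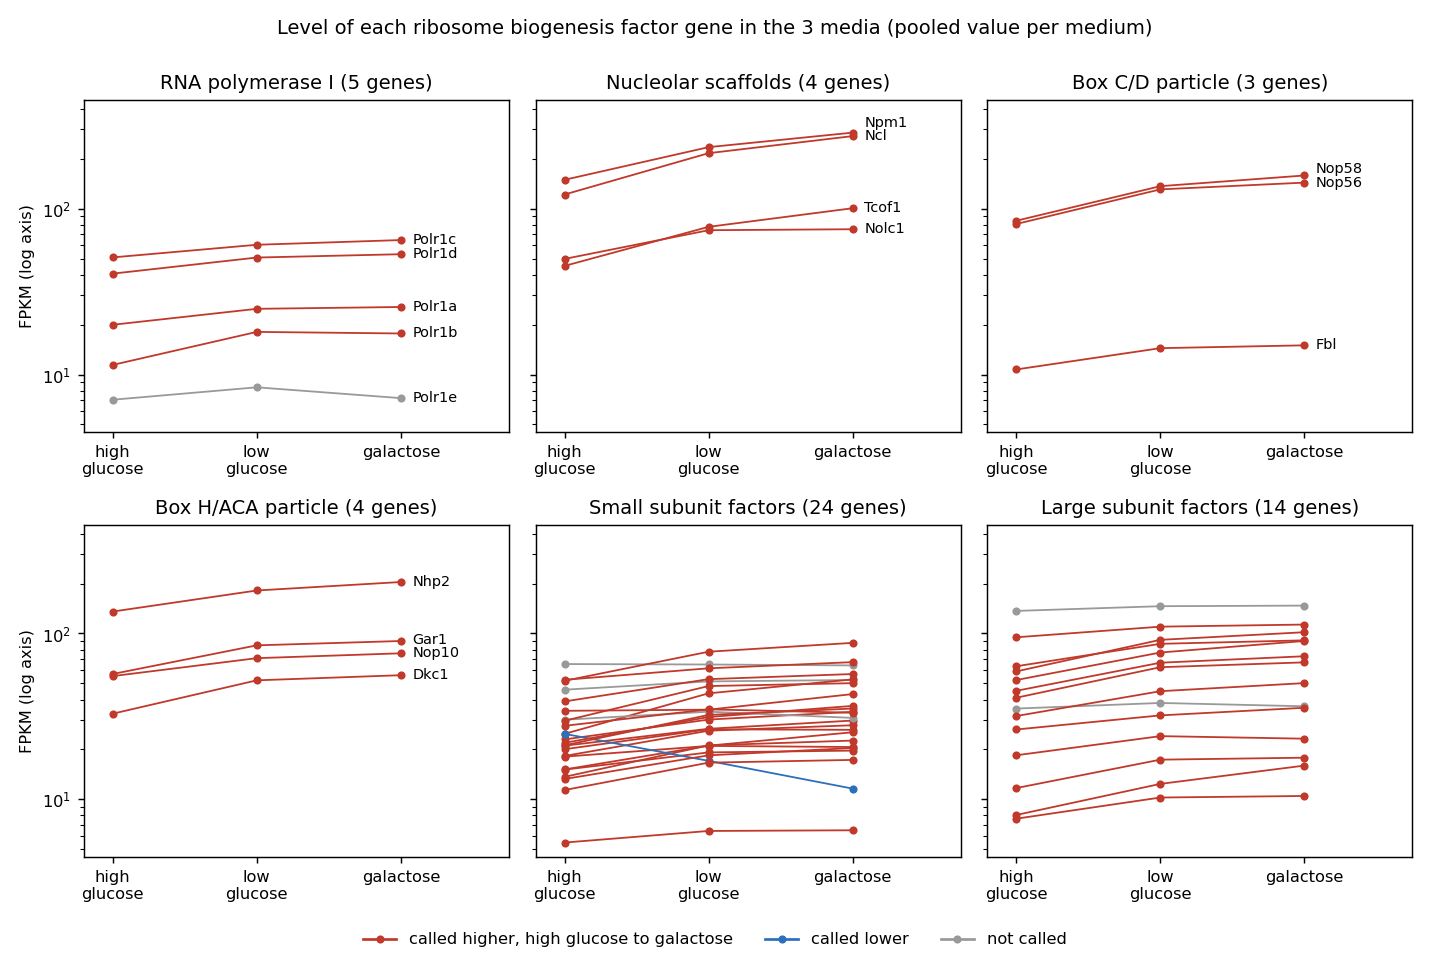
Level of each member but Nol3 and Nol4 (y axis, FPKM, log axis) in high glucose, low glucose and galactose, 1 pooled value per medium in the authors' deposited table, with 1 line per gene in 6 role groups, coloured by the call from high glucose to galactose. Most lines climb from high to low glucose and then flatten, Ncl and Tcof1 go on climbing, and the row of Utp14b falls from 24.8 to 11.6 FPKM.

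Of 24 small subunit factors, 19 rose in low glucose and 20 in galactose, with medians of 0.40 and 0.53 on the log2 scale. Nop14, whose product is part of the processome and is needed for the small subunit's RNA to be cut out, changed most. It was at 24.8, 43.6 and 52.9 FPKM per the authors' deposited table, 1.76-fold and 2.13-fold higher than in high glucose. Its locus was also among those that rose from low glucose to galactose, by 0.28 on the log2 scale (q = 0.000239).

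Wdr43, Wdr75, Utp15 and Nol11 encode parts of the UTP-A complex, which binds the precursor first and also helps its transcription. Wdr43 went from 29.8 to 48.2 and 50.2 FPKM and Wdr75 from 21.2 to 32.3 and 35.3 FPKM per the authors' deposited table. Utp15 went from 11.4 to 16.7 and 17.3 FPKM, and Nol11 from 15.1 to 19.2 and 19.7 FPKM per the authors' deposited table. All 4 rose against high glucose in both media, and none passed the test between low glucose and galactose, where Wdr75 had the lowest q (0.117).

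Utp18 and Utp6 encode parts of the UTP-B complex. Utp18 was at 21.9, 31.4 and 36.6 FPKM and Utp6 at 27.8, 34.9 and 33.3 FPKM per the authors' deposited table. Utp18 rose by 0.74 and Utp6 by 0.26 on the log2 scale in galactose, so members of 1 complex changed by different amounts. Rrp9 encodes a protein of the U3 small nucleolar particle, which guides the cuts, and was at 51.9, 77.6 and 87.8 FPKM per the authors' deposited table.

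Mphosph10, Imp3 and Imp4 encode a trimer that joins U3 to the precursor. Mphosph10 went from 13.7 to 21.2 and 22.6 FPKM and Imp4 from 23.0 to 30.3 and 33.7 FPKM per the authors' deposited table. Imp3 behaved differently, at 34.2 and 34.7 FPKM in high and low glucose (q = 0.846) and 43.1 FPKM in galactose in the authors' deposited table. It was called higher in galactose against both glucose media, by 0.33 and 0.31 on the log2 scale. Imp3 is a gene of 1 exon, like Utp3 and Rrs1 among the members.

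Utp14a, whose product activates a helicase of the processome, and Utp20, a long scaffold protein, had log2 changes of 0.74 and 0.62 in galactose in the authors' deposited table. Utp14a went from 15.1 to 21.1 and 25.4 FPKM per the authors' deposited table and rose again from low glucose to galactose (q = 0.000659). Rrp12, Nol6, Utp11l, Nol10, Rrp7a, Utp23 and Nop9 also rose in both media, by 0.19 to 0.62 in galactose on the log2 scale. Nol7, at 45.8, 51.4 and 52.4 FPKM, did not pass the test in either medium (q = 0.121 and 0.0618 in the authors' deposited table). Utp3 was at 30.2, 33.8 and 31.0 FPKM per the authors' deposited table and was not called in any comparison. A row at the same coordinates held 29.4, 29.1 and 28.2 FPKM per the authors' deposited table, so Utp3 has 2 rows of like level, and how reads were assigned to them was not tested.

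The remaining 2 small subunit rows hold another gene too. The row of Rrp36 also holds Klhdc3 and was not called in any comparison, at 65.4, 65.0 and 64.2 FPKM per the authors' deposited table. The row of Utp14b, a retrogene copy of Utp14a that lies inside Acsl3, holds both symbols. It was at 24.8, 17.1 and 11.6 FPKM per the authors' deposited table, 2.14-fold lower in galactose than in high glucose, and called lower in all 3 comparisons. How much of it came from Utp14b was not tested. Of the large subunit members, Rrs1 and Rrp8 stand in such rows as well, with Adhfe1 and Taf10.

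**Figure D3:**
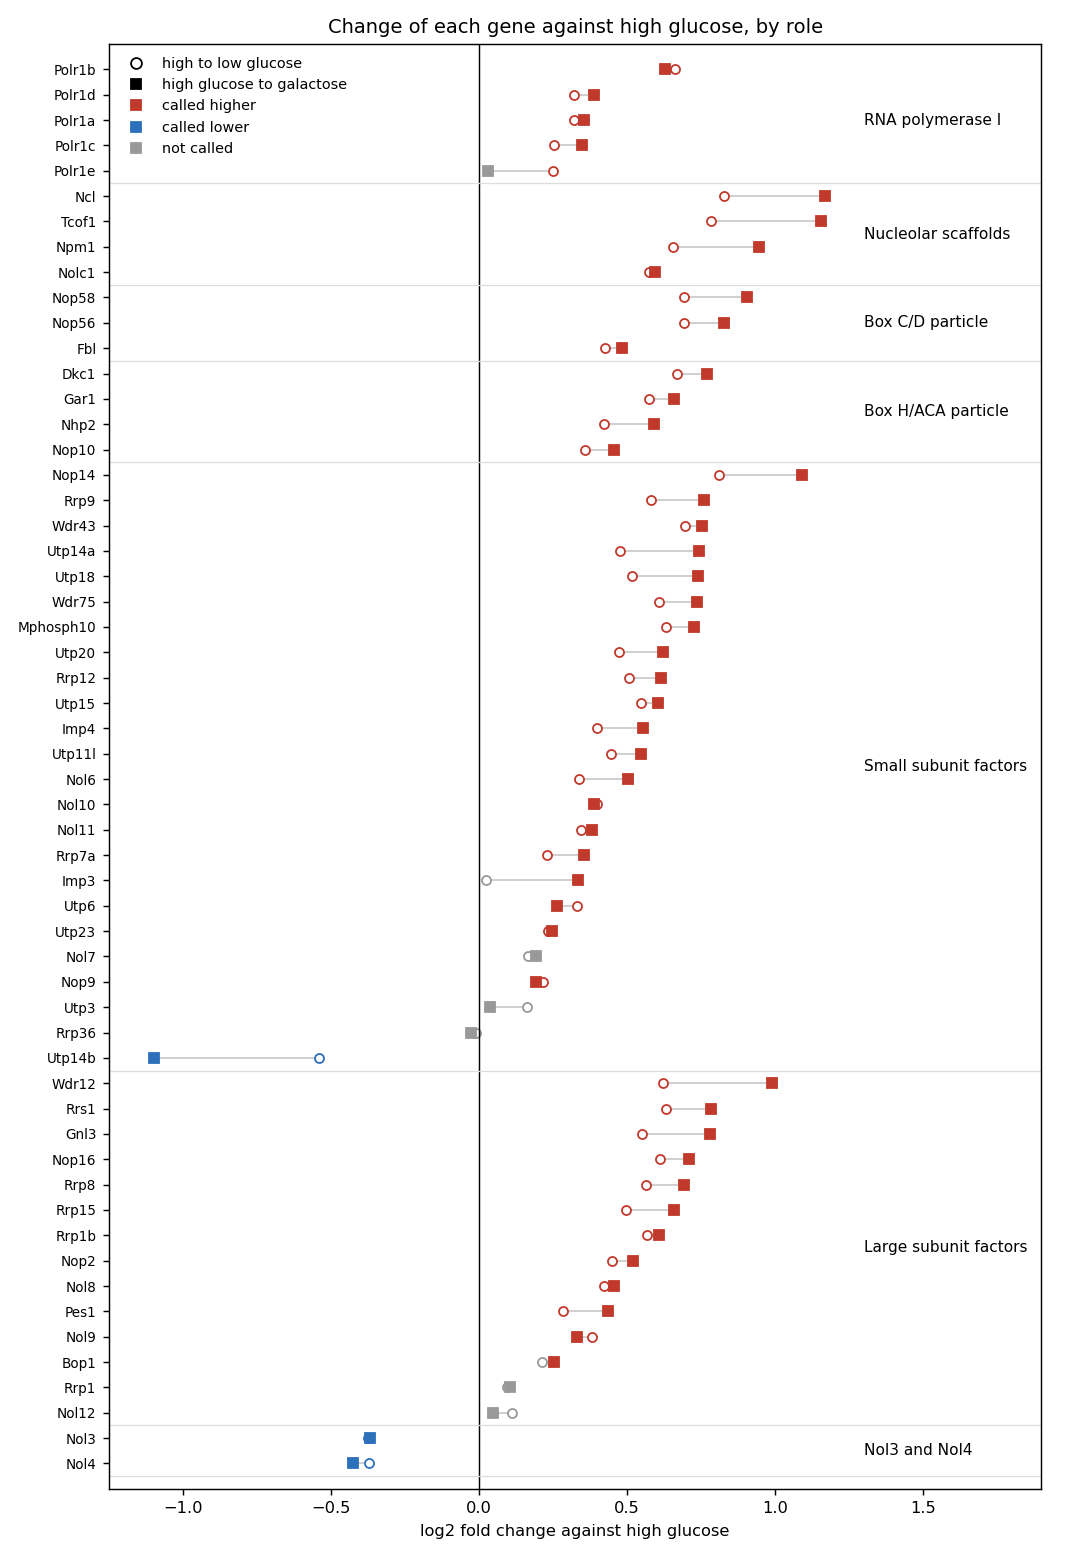
log2 fold change (x axis) of each of the 56 members against high glucose in the authors' deposited table, for low glucose (open circles) and galactose (filled squares), by role and coloured by call. Members called higher in galactose reach from 0.19 (Nop9) to 1.17 (Ncl), and Utp14b, Nol3 and Nol4 are the only members called lower.

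Of 14 large subunit factors, 11 rose in low glucose and 12 in galactose, with medians of 0.47 and 0.56 on the log2 scale. Pes1, Bop1 and Wdr12 encode the PeBoW complex, which is needed to cut the spacer before the large subunit's RNA. Pes1 was at 26.4, 32.1 and 35.7 FPKM, Bop1 at 94.9, 110 and 113 FPKM, and Wdr12 at 8.06, 12.4 and 16.0 FPKM per the authors' deposited table. Wdr12 was 1.98-fold higher in galactose than in high glucose and rose again from low glucose to galactose (log2 change 0.37, q = 0.000239). Bop1 was not called in low glucose (q = 0.089) and only narrowly in galactose (q = 0.0392). The level of Bop1 over that of Wdr12 therefore went from 11.8 in high glucose to 8.86 and 7.08, per length.

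Gnl3 encodes nucleostemin, a nucleolar GTPase named for its abundance in stem cells, and was at 52.4, 76.8 and 90.1 FPKM per the authors' deposited table. Nop2 encodes a methyltransferase of the large subunit's RNA and went from 63.5 to 86.6 and 90.9 FPKM per the authors' deposited table. Nop16 went from 41.0 to 62.6 and 67.0 FPKM and Rrp15 from 31.8 to 44.9 and 50.2 FPKM per the authors' deposited table. Of the 12 members called higher in galactose than in low glucose, Rrp15 had the highest q (0.0477). The combined row of Rrs1, which helps the small ribosomal RNA of the large subunit to join, was at 59.1, 91.6 and 102 FPKM per the authors' deposited table.

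Rrp1b, Nol8 and Nol9, which encode further large subunit factors, rose in both media, by 0.33 to 0.61 on the log2 scale in galactose. The combined row of Rrp8 rose by 0.69. Rrp1, a paralogue of Rrp1b, did not pass the test in any comparison and was at 137, 146 and 147 FPKM per the authors' deposited table, the highest level in the group. Rrp1b was at 11.7, 17.4 and 17.8 FPKM per the authors' deposited table. Nol12, an RNA-binding factor, was at 35.3, 38.1 and 36.4 FPKM and was not called in any comparison in the authors' deposited table.

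The 2 members named Nol that are not known as ribosome assembly factors went the other way. Nol3 encodes the apoptosis repressor ARC of muscle and was at 8.9, 6.87 and 6.89 FPKM per the authors' deposited table. Nol4 was at 1.84, 1.42 and 1.37 FPKM per the authors' deposited table, the lowest of all members. Both were called lower in each of the other media than in high glucose, with log2 changes from -0.37 to -0.42. Without these 2 and the 4 combined rows, an alternative added after seeing the data, 44 of 50 members were called higher and 0 lower from high to low glucose. In galactose, 45 of 50 were called higher and 0 lower against high glucose, so that 6 and 5 of the 50 passed the authors' test in neither direction.

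The members called higher from low glucose to galactose were Ncl, Tcof1, Npm1, Nop58, Nop14, Imp3, Utp14a, Utp18, Rrp9, Nol6, Wdr12 and Rrp15. Their log2 changes in this step reached from 0.16 for Rrp15 to 0.37 for Tcof1 in the authors' deposited table. The 2 lower were Polr1e and the row of Utp14b. The remaining 42 members did not pass, which does not show that their levels in these media were equal.

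By position, the members lay on 19 chromosomes. In GENCODE M21 (same build, 55 of 56 symbols matched), 6 of the 56 loci (10.7%) hold snoRNA genes, the guide RNAs of the particles above, while 3.36% of all tested loci do. The 6 were Nop56 with 5 snoRNA genes, Nop58 with 4, Ncl, Wdr43 and Gnl3 with 3 each, and Dkc1 with 1. In galactose these 6 rose by 0.75 to 1.17 on the log2 scale, with a median of 0.81, and the other 50 had a median of 0.49. In low glucose the medians were 0.69 and 0.41. These medians are a description of members chosen with results known.

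Genes of the same pathway outside the name rule were read from lists drawn up by function. As a background for each list, 18.3% of all tested loci were called higher in low glucose and 26.5% in galactose. Of 13 other genes of RNA polymerase I transcription, 7 were called higher in low glucose and 9 in galactose and none lower against high glucose in the authors' deposited table. Ddx21, a nucleolar helicase, Twistnb, a polymerase subunit, and Cd3eap, another subunit, had log2 changes of 0.62, 0.56 and 0.49 in galactose in the authors' deposited table. Ubtf, the factor that opens the ribosomal RNA genes, went from 47.1 to 60.7 and 66.3 FPKM per the authors' deposited table. The core promoter factor gene Taf1c and the terminator gene Ttf1 were not called against high glucose in either medium, as was Znrd1, a subunit gene.

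Of 34 other small subunit factors, 25 were higher in low glucose and 26 in galactose in the authors' deposited table. Heatr1, a UTP-A scaffold, Aatf and Lyar, both nucleolar proteins, had log2 changes of 0.75, 0.70 and 0.70 in galactose in the authors' deposited table. Of 40 other large subunit factors, 29 and 31 were higher, led by the GTPase gene Gtpbp4, Mrto4 and Noc2l with 0.86, 0.81 and 0.77 in galactose in the authors' deposited table. No gene of these lists was called lower against high glucose, beside 18.2% of all tested loci in low glucose and 24.8% in galactose.

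The RNA exosome trims ribosomal RNA ends. Of 15 genes of the exosome and of trimming, 7 were higher in low glucose and 10 in galactose in the authors' deposited table, among them the catalytic subunit gene Dis3 with a log2 change of 0.71. Of 9 genes for the assembly of small nucleolar particles, 7 were higher in both media. Naf1, which encodes the chaperone that precedes Gar1 on box H/ACA particles, went from 8.7 to 13.7 and 18.8 FPKM per the authors' deposited table. Of 12 export and late maturation genes, 7 and 10 were higher, with the export adaptor gene Nmd3 and the subunit joining inhibitor gene Eif6 at 0.53 and 0.52 in galactose in the authors' deposited table. Over these 6 lists, 82 of 123 genes (66.7%) were called higher in low glucose and 93 (75.6%) in galactose. The medians were 0.32 and 0.38. Among all tested loci of at least 5 FPKM, 22.9% and 32.2% were called higher. From low glucose to galactose, 16 of the 123 (13.0%) were called higher and 3 lower. Of all tested loci, 17.4% were called higher and 16.0% lower in that comparison.

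**Figure D4:**
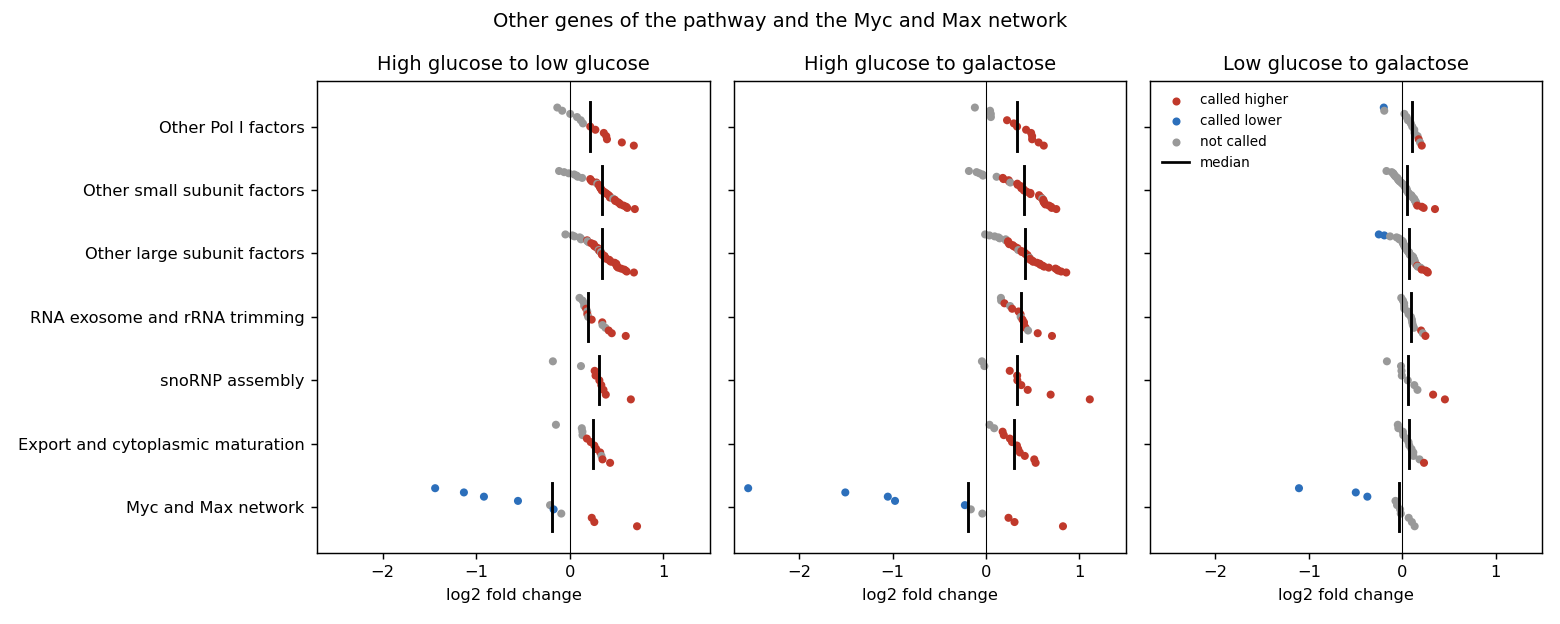
log2 fold change (x axis) of each gene in 6 lists of the same pathway and in the Myc and Max network (rows) in the authors' deposited table, coloured by call, each list's median being a black bar. The 6 pathway medians lie from 0.20 to 0.34 in low glucose and from 0.31 to 0.42 in galactose, and the Myc and Max network spreads to both sides of 0.

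Transcription factors of the Myc network were given for context, since Myc and Max bind the E-box above. Myc was at 44.2, 72.8 and 78.2 FPKM per the authors' deposited table, 1.65-fold and 1.77-fold higher in low glucose and galactose than in high glucose. Max went from 35.5 to 42.7 and 42.0 FPKM per the authors' deposited table. Mxd4 and Mxd1 encode repressors that compete with Myc for Max. Mxd4 was at 18.2, 6.69 and 3.11 FPKM per the authors' deposited table, 5.83-fold lower in galactose, and Mxd1 was at 1.51, 0.801 and 0.77 FPKM per the authors' deposited table. The row that Mxd3 shares with Rab24 went from 76.7 to 52.3 and 37.0 FPKM, and Mycl1 from 4.32 to 1.97 and 1.52 FPKM per the authors' deposited table. Mga was at 2.73, 3.22 and 3.38 FPKM per the authors' deposited table and was called higher in both media. Mnt, at 15.4, 13.7 and 15.0 FPKM, was called lower in low glucose (q = 0.0298) but not in galactose (q = 0.695). Mlx, at 16.9, 14.6 and 14.5 FPKM, was called lower only in galactose (q = 0.0347). Mxi1, at 3.82, 3.59 and 3.41 FPKM, was not called in any comparison. Of 10 tested genes of the network, 3 were called higher and 5 lower in each of the comparisons with high glucose, and whether any of them bears on the members was not tested.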

How the data were processed

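PolyA RNA of C2C12 cells was sequenced with NEBNext Ultra libraries, per the labels. The groups follow the sample labels, although the series' design text describes muscle stem cells. TopHat2 2.0.10, Cufflinks 2.2.0, Cuffdiff and build mm10 are named per the submitters' processing notes; settings and library normalization are not given in the sources used here. The deposited FPKM values are pooled per group. For log2 fold changes, the deposited numbers equal the ratio of 2 such values on that scale, without a pseudocount, to within 6.9e-06 for the members. Among 38001 tests with both values at 1 FPKM or more, it differed from that ratio by more than 0.001 in 72, by at most 0.11. The deposited p-value and q-value are Cuffdiff's; recomputing Benjamini-Hochberg over all 44006 tests differed from the deposited q by at most 5.3e-07. The deposited test score was not used. Libraries could not be compared, since the deposited table gives only pooled values.

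Loci tested were 14699, 14812 and 14495. Calls took status OK and q below 0.05. Start positions count from 0 in the file and were raised by 1. Members and lists were chosen with earlier results of these data known. Named genes are all members, and up to 3 called genes with the largest change from each further list. Some genes were singled out after their values were seen (Ubtf, Taf1c, Ttf1, Znrd1, Myc, Max, Mxd1, Mga, Mnt, Mlx and Mxi1). Role groups follow general knowledge of the proteins. Of the 50 promoter windows of members, 43 had their first transcribed bases, from the eleventh on, in a GENCODE M21 transcript of the gene in the same direction. The adjustment was tested on simulated data. Alternatives tried were q below 0.01, a log2 change of at least 1, a minimum of 1 FPKM, adjustment within each comparison, a pseudocount of 1 FPKM, re-centring, equal totals, and leaving out combined rows or Nol3 and Nol4. The background at 5 FPKM, equal totals, and leaving out both kinds of row together were chosen after seeing the data. Scripts ran in Python 3.11.15; tables were read with pandas 2.3.3, and statistics used numpy 2.4.6 with scipy 1.17.1. Figures were drawn by matplotlib 3.10.9.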

Additional observations from a re-analysis of the deposited data

How the results depend on the processing

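Of 66 settings and results computed, 42 stayed within 1.5 times the main count or the same rounded median, and none reversed. A log2 change of at least 1 left 0 members higher and 0 lower in low glucose, 3 and 1 in galactose against high glucose, and 0 and 0 from low glucose to galactose. Leaving out Nol3 and Nol4 took the members called lower from 3 to 1 in low glucose and to 1 in galactose, with medians of 0.45 and 0.57. Without combined rows as well, 0, 0 and 1 members were lower in the 3 comparisons. From low glucose to galactose, 1 member was lower at q below 0.01 and 1 without combined rows. Re-centring on all tested loci gave medians of 0.43, 0.54 and 0.085, a pseudocount of 1 FPKM gave 0.43, 0.54 and 0.092, and equal totals gave 0.35, 0.38 and 0.011. No paired analysis was possible because the deposited table holds 1 pooled value per group, and for the same reason no replicate was left out. With no values per library, depth and the spread between libraries limit every value in a way that cannot be measured here.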

Other observations

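The precursor ribosomal RNA that these factors process is itself listed, as Rn45s, in 2 rows at the same coordinates of chromosome 17 (39842991 to 39848833, mm10). One row was at 127, 92.1 and 188 FPKM in high glucose, low glucose and galactose in the authors' deposited table, called lower in low glucose (log2 change -0.46) and higher in galactose (0.57). The other row was at 99.4, 101 and 111 FPKM per the authors' deposited table and was not called in any comparison. The libraries were made from polyA RNA, and ribosomal RNA is not polyadenylated as a rule. These genes were chosen after their values were seen.

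Of the RNA parts of related enzymes, Rpph1, the RNA of ribonuclease P, was at 6.54, 7.9 and 2.95 FPKM per the authors' deposited table, lower in galactose by a log2 change of -1.15. Rmrp, the RNA of a related ribonuclease that cuts the ribosomal precursor, was not called, at 2.42, 1.77 and 1.6 FPKM per the authors' deposited table.

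Genes named for the other nuclear RNA polymerases were also read after seeing the data. Of 13 Polr2 genes, 2 were called higher in low glucose and 3 in galactose, with 1 lower in galactose, Polr2a, at a log2 change of -0.24 per the authors' deposited table. These shares called higher, 15.4% and 23.1%, lie near the 18.3% and 26.5% of all tested loci. Some Polr2 genes encode subunits that RNA polymerase I shares, among them Polr2h, called higher in both media, and Polr2f, called higher in galactose. The Polr2 counts are thus no clean contrast with RNA polymerase I. Of 10 Polr3 genes, 5 were higher in each medium against high glucose, with 1 lower in low glucose and 2 in galactose. Polr3e rose by 0.63 and Polr3g fell by 0.31 on the log2 scale in galactose in the authors' deposited table, and the latter was higher in low glucose by 0.43.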
